A study of Mus musculus and Macaca mulatta with 39 samples.

Results

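Among the stretches of mouse chromatin that became acetylated between embryonic day 11.5 (E11.5) and E17.5 of cortical development, 955 already carried a different histone mark, H3K4me2, before the acetylation was called. These primed loci are described here. Touching or overlapping H3K27ac regions of all 8 mouse lists were merged into 137962 loci. A locus was counted as primed when it lay on an autosome, had no H3K27ac region in either E11.5 list, had one in all 4 E17.5 lists, and overlapped an H3K4me2 region in both E11.5 lists. In all, 10476 autosomal loci gained H3K27ac in this way. Of these, the 955 primed loci made up 9.12%, a further 1592 (15.2%) had H3K4me2 in 1 of the 2 E11.5 lists, and 7929 (75.7%) had none in either list and are called unprimed. The loci were chosen by H3K27ac at E11.5 and E17.5 and by H3K4me2 at E11.5, so those values are given as a description and support no test.

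Histones carry chemical marks that accompany the use of the DNA wrapped around them. H3K4me2 is the dimethylation of a lysine of histone H3 by methyltransferases of the KMT2 family, and it marks promoters and enhancers, both used and unused. H3K27ac, the acetylation of another lysine of the same histone by CBP and related acetyltransferases, accompanies promoters and enhancers that are active. An enhancer that holds H3K4 methylation but lacks H3K27ac is commonly called primed or poised. In the cortex, the interval studied runs from the time when progenitors begin to make neurons to the time when most projection neurons have been born, so that the mixture of cells changes with age.

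The samples came from C57BL6J mouse embryos, with 2 biological replicates each of E11.5 cortex, E14.5 cortex, E17.5 frontal cortex and E17.5 occipital cortex. They were untreated as far as the labels say. H3K27ac and H3K4me2 were each profiled in every replicate by chromatin immunoprecipitation and sequencing (ChIP-seq), and 1 list of regions called by the authors was used for each, 16 mouse lists in all. Whole tissue was used, so more cells carrying a mark and more of it per cell cannot be told apart. Positions are on mm9 and are 1-based. No read count or score stands beside a region, so the depth is unknown and the length of a locus covered by called regions, in bp, is the only quantity here. The lists differed in length. H3K27ac lists covered 63.1 to 85.3 Mb at E11.5, 107 to 144 Mb at E14.5 and 129 to 169 Mb at E17.5. H3K4me2 lists covered 69.3 to 112 Mb, 65.3 to 95.2 Mb and 90.0 to 162 Mb at the same ages. Within E14.5, replicate 1 had the longer H3K27ac list and the shorter H3K4me2 list.

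The number of primed loci rested on the longer E11.5 H3K27ac list, that of replicate 1. Without it the same rule gave 2794 loci, and without the E11.5 H3K4me2 list of replicate 1, the shorter of its pair, it gave 2498. An equal number of the widest regions from every list of a mark left 359. Absence of H3K27ac at E11.5 therefore means only that no region passed the authors' threshold.

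Loci at the edge of the rule had very short overlaps. The shortest E11.5 H3K4me2 overlap of a primed locus was at chr16:84956126-84958700, with 25 and 150 bp in replicates 1 and 2. Next came chr18:76915977-76917300 with 100 and 1075 bp and chr19:57673376-57677626 with 100 and 1350 bp. The whole regions reached outside these loci and were longer. They measured 625 and 1050 bp, 525 and 1475 bp, and 950 and 2325 bp in the order given. Just outside stood gained loci with long H3K4me2 in replicate 2 of E11.5 and none in replicate 1. These were chr3:53820176-53824925 with 4475 bp, chr1:37040776-37044450 with 3625 bp and chr2:71081176-71085025 with 3600 bp.

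Primed loci were more often acetylated by E14.5 than unprimed ones. The rule asked for no call at E14.5, but E14.5 H3K27ac regions entered the merging and so helped to set the ends of the loci. A wider locus can meet H3K4me2 more easily, and the part of this in the shares was not tested. At E14.5 H3K27ac was called at 855 of the 955 primed loci (89.5%) in replicate 1 and at 601 (62.9%) in replicate 2. The corresponding numbers for the 7929 unprimed loci were 5198 (65.6%) in replicate 1 and 3806 (48.0%) in replicate 2. In both replicates the share was higher among primed loci, although among primed loci the replicates differed from each other by more than the classes did in either replicate, with a share over the 2 lists of 76.2 ± 18.8% in primed and 56.8 ± 12.4% in unprimed loci (SD, n = 2). No test was made, because 2 lists could not reach 0.05 in an exact test.

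Counted over both replicates, 565 primed loci (59.2%) had H3K27ac in both E14.5 lists and 64 (6.70%) in neither. Among unprimed loci 3264 (41.2%) had it in both and 2189 (27.6%) in neither. Loci with H3K4me2 in 1 E11.5 list, which was that of replicate 2 at 96.9% of them, lay between, with 903 of 1592 (56.7%) in both lists and 188 (11.8%) in neither. The order of the 3 classes was thus the order of the number of E11.5 lists with H3K4me2, although loci with 1 list lay close to primed ones. Under each of 14 alternatives of the rule, including leaving out each list that enters it, the share in the E14.5 lists was higher in primed than in unprimed loci, by 14.8 to 28.9 percentage points.

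**Figure D1:**
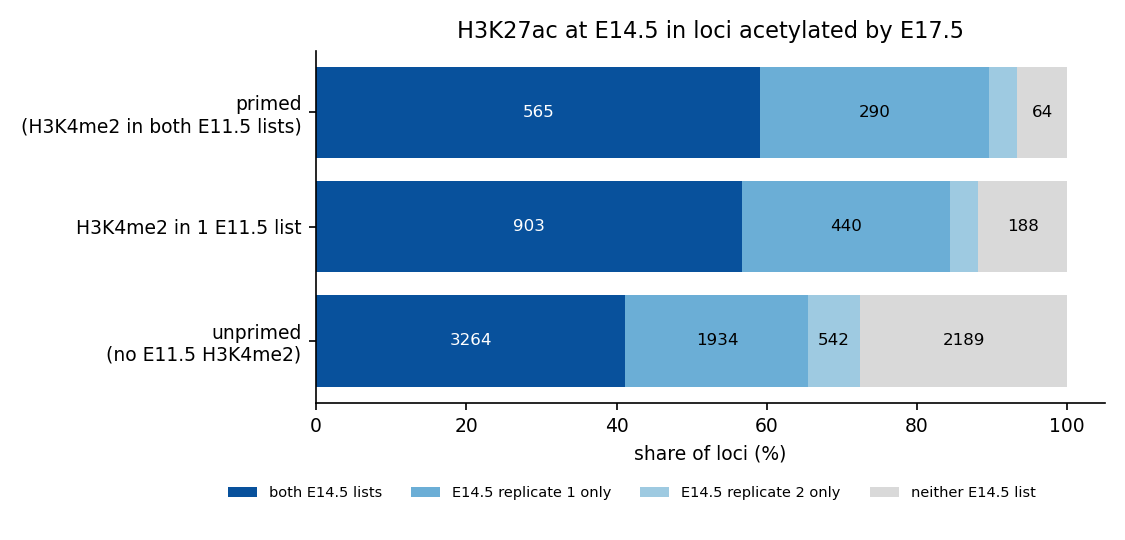
Share of loci (%, horizontal) with H3K27ac in both E14.5 lists, in 1 of them or in neither, for primed loci, loci with H3K4me2 in 1 E11.5 list and unprimed loci, with the number of loci written in the larger segments. The segment for both lists held 59.2% of primed and 41.2% of unprimed loci, and the segment for neither held 6.70% and 27.6%.

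The difference in timing was present at every length of the later acetylation. Loci with longer H3K27ac at E17.5 were more often called at E14.5 in both classes, so the classes were set side by side within bins of the mean E17.5 length. Of loci under 1000 bp, 74.5% of 157 primed and 44.2% of 1348 unprimed loci were called in replicate 1 of E14.5, and 38.2% and 28.3% in replicate 2. Of loci of 3000 bp or more, 98.0% of 149 primed and 87.1% of 1318 unprimed loci were called in replicate 1, and 88.6% and 73.3% in replicate 2. In each of the 5 bins and in both replicates the primed share was higher than the unprimed one. Loci with H3K4me2 in 1 E11.5 list were closer to primed loci. Under 1000 bp, 31.9% of them had H3K27ac in both E14.5 lists, against 30.6% of primed loci. In the other bins their share was below the primed one.

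**Figure D2:**
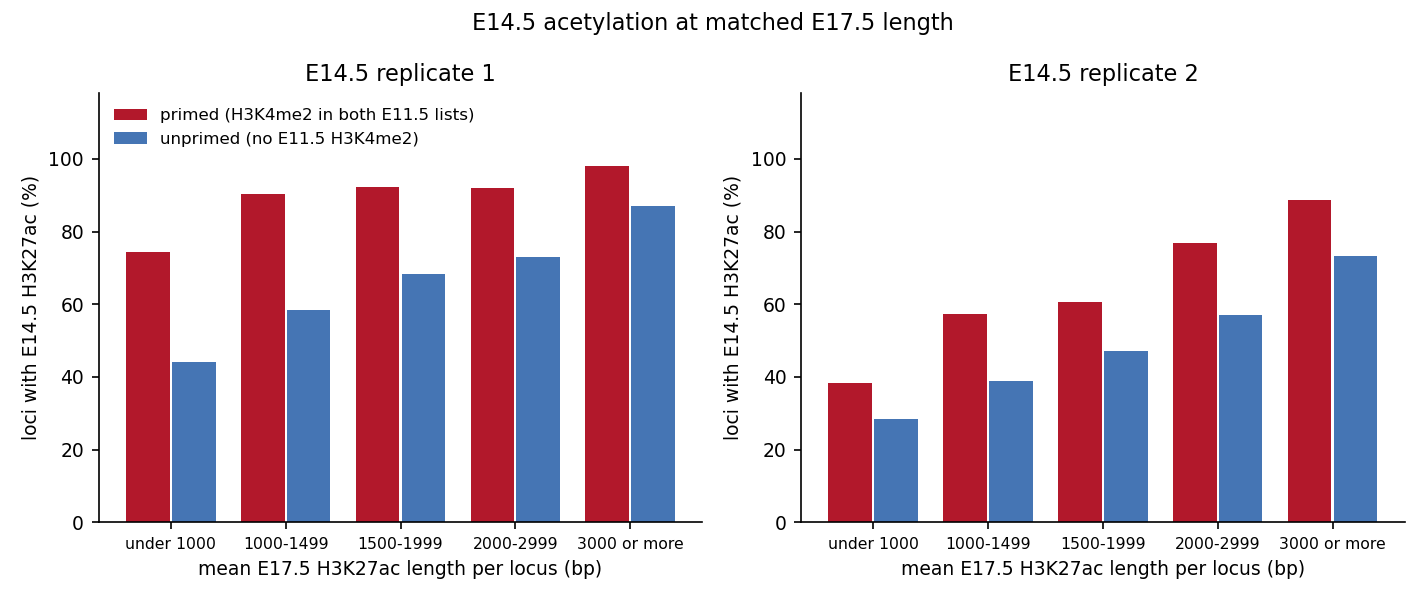
Share of loci (%) with a called H3K27ac region in each E14.5 list, for primed and unprimed loci in 5 bins of the mean H3K27ac length over the 4 E17.5 lists (bp). The primed bar is the taller one in every bin of both panels, by the widest margin between 1000 and 1500 bp in replicate 1 (90.2% against 58.4%).

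The classes lay at like distances from chromatin that was already acetylated. The distance to the nearest region of either E11.5 H3K27ac list had a median of 10450 bp for primed and 10875 bp for unprimed loci, and 87.5% and 87.4% of them lay within 50 kb. Within 5 kb of such a region, H3K27ac was called in both E14.5 lists at 63.5% of 282 primed and 45.6% of 2167 unprimed loci. Beyond 50 kb it was called in both at 52.1% of 119 primed and 31.6% of 999 unprimed loci. The primed share was higher than the unprimed one both near to and far from earlier H3K27ac. For loci with H3K4me2 in 1 E11.5 list the share beyond 50 kb was 52.7%, about that of primed loci. Nearer to earlier H3K27ac it was below the primed share.

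Among the primed loci themselves, those with longer E11.5 H3K4me2 were more often acetylated at E14.5. H3K27ac was in both E14.5 lists at 51.1% of the 282 loci with under 1000 bp of H3K4me2 (mean of the 2 E11.5 lists), at 60.4% of 449 loci with 1000 to 1500 bp, at 61.8% of 144 loci with 1500 to 2000 bp and at 76.3% of the 80 loci with 2000 bp or more. The loci of the longest bin also had the longest later acetylation, with a median E17.5 H3K27ac length of 2537.5 bp against 1378 bp in the shortest bin. H3K4me2 was counted inside the locus, whose ends E14.5 H3K27ac regions helped to set. Primed loci with H3K27ac in both E14.5 lists had a median locus of 2875 bp, against 1650.5 bp for those with it in neither. More H3K4me2 could thus be counted at loci acetylated at E14.5. The part of either length in the rise was not tested.

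At most primed loci the acetylation met the stretch that had been dimethylated. A stretch common to both E11.5 H3K4me2 lists was present in 950 of the 955 loci and had a median of 925 bp, or 40.0% of the locus. Of the loci called at E14.5, the H3K27ac region met this stretch in 822 of 851 (96.6%) in replicate 1 and in 517 of 598 (86.5%) in replicate 2. At E17.5 it did so in 94.1% to 97.5% of 950 loci in the 4 lists. Where acetylated, the median locus had 97.7% of the stretch covered by H3K27ac in replicate 1 of E14.5 and 66.7% in replicate 2. The rule asked only that both marks lie in the same merged locus, which favours such contact without requiring it.

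H3K27ac also reached beyond the H3K4me2 of E11.5. Summed over the called loci, 67.4% and 66.5% of the H3K27ac length in replicates 1 and 2 of E14.5 fell on sequence covered by H3K4me2 in either E11.5 list. At E17.5 this share was 57.8% and 56.1% in the 2 frontal lists and 57.3% and 67.5% in the 2 occipital lists. Replicate 2 of occipital cortex, which had the shortest E17.5 H3K27ac list, was as high as E14.5, and the other E17.5 lists were lower.

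The mean H3K27ac length of primed loci is given for each list as a description. A call in all E17.5 lists was part of the rule, whereas uncalled loci enter the E14.5 means at 0 bp, so that a higher E17.5 mean is built in. The mean length per locus was 0 bp in both E11.5 lists by the rule, 1599 and 832 bp in the E14.5 lists, 2036 and 2283 bp in the frontal lists and 2231 and 1664 bp in the occipital lists. Every E17.5 list was therefore above both E14.5 lists, with a narrow gap between replicate 2 of occipital cortex and replicate 1 of E14.5. Unprimed loci had 1084 and 618 bp at E14.5, 2078 and 2280 bp in frontal and 2262 and 1577 bp in occipital cortex. Primed and unprimed loci thus had like lengths at E17.5, at 2053 ± 281 bp and 2049 ± 328 bp (SD, n = 4 lists), and differed at E14.5, at 1216 ± 542 bp and 851 ± 329 bp (SD, n = 2 lists), by less than the spread between the E14.5 replicates of primed loci.

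Among loci called in every list of both ages, 565 primed loci had a median ratio of E17.5 to E14.5 length of 1.31 and 3264 unprimed loci one of 1.46, against 1.03 at the 33428 of all 85290 loci with a call in at least 2 H3K27ac lists that were called in every list of both ages. All 4 E17.5 lists were longer than both E14.5 lists at 294 primed loci (30.8%) and shorter at 19 (1.99%). Over all 85290 loci the shares were 11.0% longer and 6.15% shorter. Since a call at E17.5 was part of the rule, nothing is read from these counts or ratios.

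**Figure D3:**
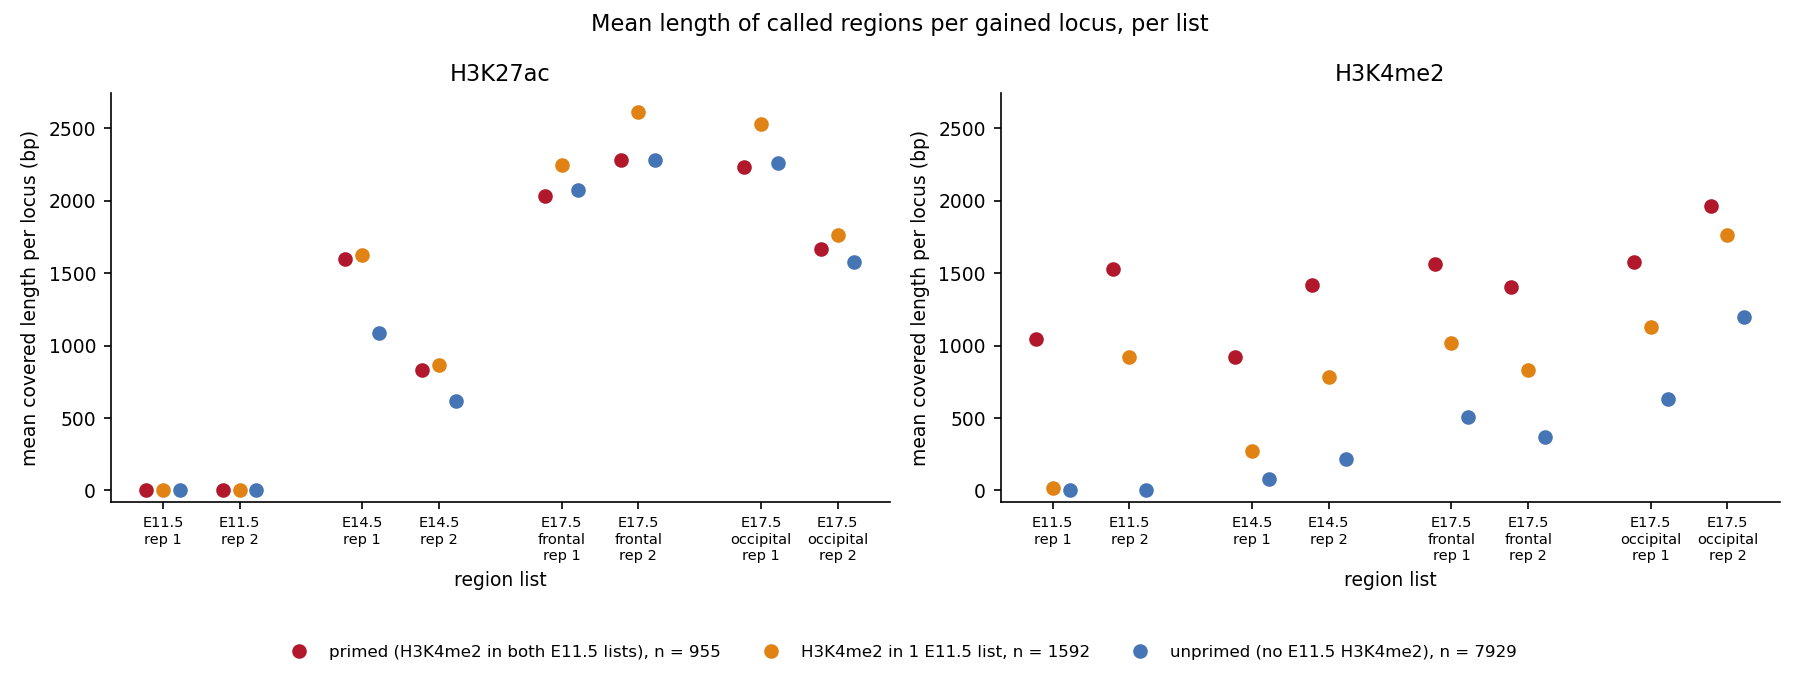
Mean covered length per locus (bp) of H3K27ac and H3K4me2 in each of the 8 lists of a mark, for primed loci, loci with H3K4me2 in 1 E11.5 list and unprimed loci. At E17.5 the H3K27ac means of primed and unprimed loci nearly coincide (2036 and 2078 bp in frontal replicate 1), whereas in every H3K4me2 list the primed loci are the highest. At E11.5 the place of primed above unprimed loci in H3K4me2 follows from the rule.

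H3K4me2 stayed at most primed loci. It was called at 689 (72.1%) and 883 (92.5%) of them in the 2 E14.5 lists, at 887 (92.9%) and 854 (89.4%) in the frontal lists, and at 879 (92.0%) and 935 (97.9%) in the occipital lists. The low value, that of E14.5 replicate 1, came from the shortest H3K4me2 list of the series' mouse samples. In all, 660 primed loci (69.1%) had H3K4me2 in all 8 lists, 816 (85.4%) had it in all 4 E17.5 lists, and 9 (0.942%) had it in none of these 4. The rule asked for H3K27ac in all 4 E17.5 lists, and the part of this demand in the E17.5 shares was not tested. Among stretches common to both E11.5 H3K4me2 lists and without E11.5 H3K27ac, 56.5% of 4506 had H3K4me2 in all 4 E17.5 lists. That count is of stretches, not loci, and makes no demand on later H3K27ac.

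At unprimed loci H3K4me2 was called in an increasing share of loci with age but stayed below its level at primed loci. It was called at 746 (9.41%) and 1695 (21.4%) of the 7929 loci in the E14.5 lists, at 3511 (44.3%) and 2766 (34.9%) in the frontal lists, and at 4055 (51.1%) and 6005 (75.7%) in the occipital lists. The share was below that of primed loci in every list, at E11.5 by the rule. The part of the E11.5 split in the later shares was not tested. H3K4me2 was in all 4 E17.5 lists at 2177 unprimed loci (27.5%), and no H3K4me2 region was called in any of the 8 lists at 1648 (20.8%).

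The classes also differed in how the marks combined at E14.5. They were split by E11.5 H3K4me2, and how much of the difference carries over from that split was not tested. Both marks were called in both E14.5 lists at 414 primed loci (43.4%) and at 462 unprimed loci (5.83%). H3K27ac in both lists with H3K4me2 in neither was found at 32 primed loci (3.35%) and at 1936 unprimed loci (24.4%). The reverse, H3K4me2 in both lists and H3K27ac in neither, was found at 34 primed loci (3.56%) and at 19 unprimed loci (0.240%). These 34 loci still had at E14.5 the state that defined all primed loci at E11.5.

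**Figure D4:**
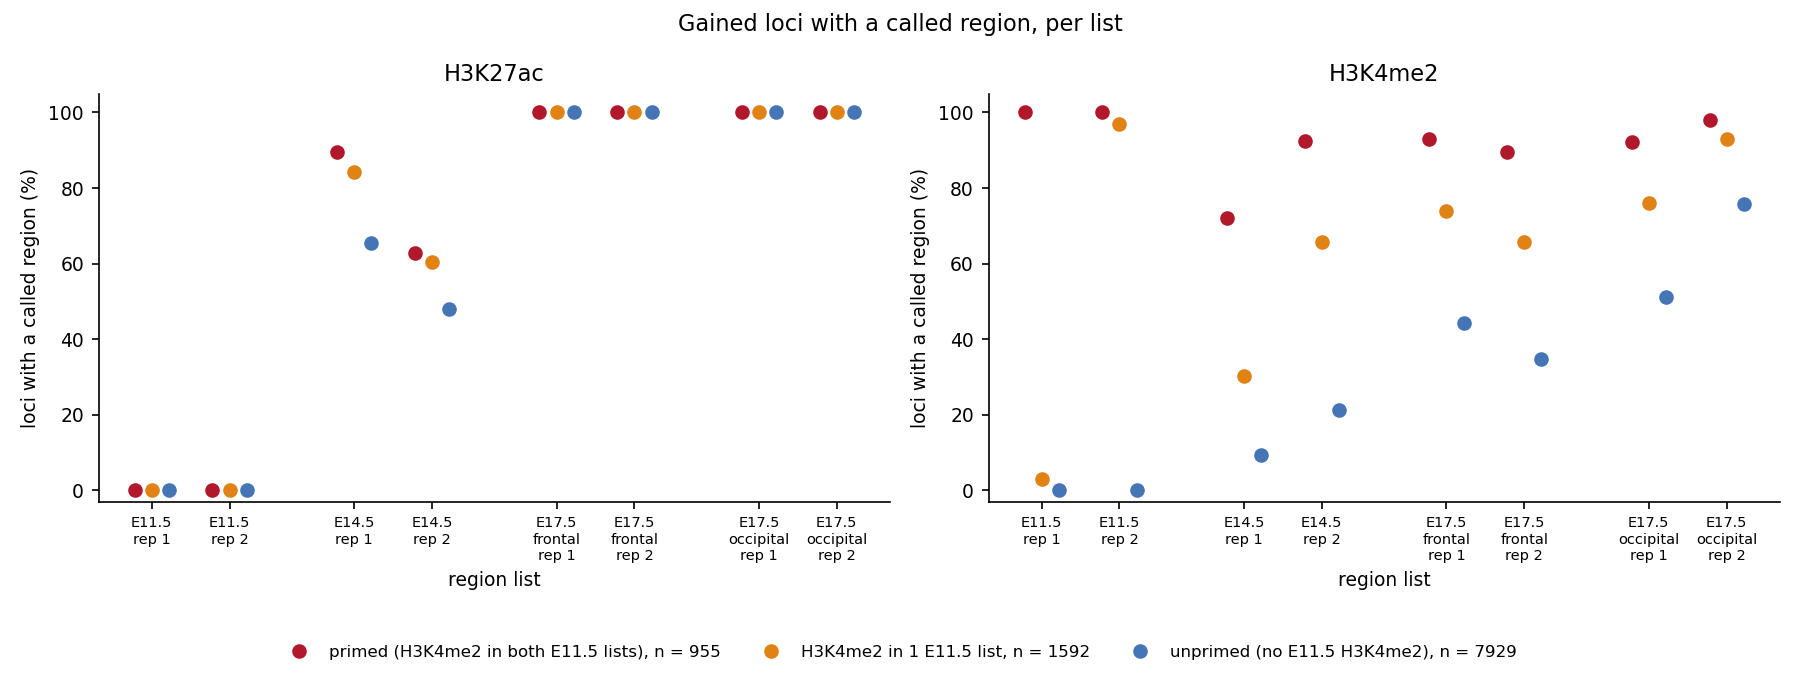
Share of loci (%) with a called region of H3K27ac (left) or H3K4me2 (right) in each list, for primed loci, loci with H3K4me2 in 1 E11.5 list and unprimed loci. The 0% and 100% points of H3K27ac at E11.5 and E17.5 are set by the rule. So are those of H3K4me2 at E11.5 for primed and unprimed loci. The rule does not set the points at E14.5 (89.5% primed and 65.6% unprimed for H3K27ac in replicate 1) or those of later H3K4me2. E14.5 H3K27ac regions did help to set the ends of the loci. The part of the demand for E17.5 H3K27ac in later H3K4me2 was not tested.

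The growth of H3K4me2 after E14.5 was small, and its direction depended on whether lengths were scaled to the list. The mean H3K4me2 length per primed locus was 1047 and 1529 bp in the E11.5 lists, 923 and 1421 bp at E14.5, 1565 and 1405 bp in frontal cortex and 1577 and 1961 bp in occipital cortex. Replicate 2 of frontal cortex lay within the range of the earlier ages, and the other 3 E17.5 lists lay above it, replicate 2 of occipital cortex, the longest H3K4me2 list, by the most. The difference between E17.5 and E14.5 was tested with limma on log2(covered bp + 200) over the 56312 loci with H3K4me2 in at least 2 of 8 lists, at a Benjamini-Hochberg adjusted p below 0.05. All 955 primed loci entered this test, through their E11.5 H3K4me2. Of them 42 (4.40%) rose and 1 fell, against 10.7% of all tested loci higher and 0.261% lower. The order of these shares rested on E14.5 replicate 2, and it held in every alternative that kept this list. Without it 205 primed loci (21.5%) were called either way, against 19.6% of all tested loci. The count of 43 (against 11.0% of all) became 66 (6.91%, against 12.6%) without E11.5 replicate 2 and 18 (1.88%, against 6.32%) without replicate 2 of occipital cortex. With no filter on the number of lists it was 18, against 3.33% of all loci. Primed loci entered through E11.5 H3K4me2, whereas other loci could enter through E17.5 H3K4me2 alone. The shares are therefore not of like loci, and primed loci are not shown to be called less often.

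The median change of a primed locus, 0.30 on the log2 scale, was that of all tested loci, 0.31. When lengths were scaled to the total of each list the medians were -0.15 and -0.06, so that the direction turned, and 20 primed loci rose and 1 fell. Without scaling, the 4 lists of E17.5 all exceeded the E14.5 pair in length at 288 primed loci (30.2%), against 18.2% of all tested loci, and all fell short of it at 1 locus, against 0.538%. The longer share was 30.0% at loci with H3K4me2 in 1 E11.5 list and 19.8% at unprimed loci. Primed loci were chosen by H3K27ac in all 4 E17.5 lists, a demand not made of all tested loci, so nothing is read from these counts. Of the unprimed loci 4691 of 7929 entered the test, where 1626 rose and 2 fell. They could enter only through H3K4me2 at E14.5 or E17.5, so that this count is not evidence of a difference from primed loci.

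The primed locus with the clearest rise of H3K4me2, chr3:48648951-48652200, had 550 and 625 bp at E11.5, none in either E14.5 list, 1275 and 1125 bp in frontal and 1300 and 1500 bp in occipital cortex. Its E17.5 H3K27ac varied between 700 and 3250 bp. The log2 change in H3K4me2 was 2.90 ± 0.12 (SE, limma adjusted p = 0.000502). With both E14.5 lists at 0 bp its size was set by the added 200 bp, and it was 1.20 with 1000 bp added, where the call held. Equal lists at 0 bp also add nothing to the spread, which lowers the SE here and at the loci below that have such lists. The mark was thus called early, not called at E14.5 and called again late, while H3K27ac was already present at E14.5 with 950 and 825 bp. The shortest region in either E14.5 H3K4me2 list was 500 bp, and the E11.5 lengths here were little more. A loss of the mark and a call just missed at E14.5 cannot be told apart. Of the 42 loci that rose, 16 had no H3K4me2 in either E14.5 list, and 31 had H3K27ac in both.

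A like course was seen at chr10:121100376-121102250, which had 750 and 1125 bp of H3K4me2 at E11.5, none at E14.5, 1575 and 1425 bp in frontal and 1875 bp in each occipital list (log2 change 3.23 ± 0.15, SE, limma adjusted p = 0.00054). H3K27ac was absent from its E14.5 lists too and reached 975 and 1575 bp in frontal and 975 and 1275 bp in occipital cortex. Here neither mark was called at E14.5. With 1000 bp added the change was 1.42. At chr2:169715151-169723126 H3K4me2 covered 825 and 775 bp at E11.5, none at E14.5, 2025 and 1800 bp in frontal and 1175 and 1725 bp in occipital cortex (3.21 ± 0.16, SE, limma adjusted p = 0.00055), and E17.5 H3K27ac was 7900 and 6275 bp in frontal and 5050 and 2875 bp in occipital cortex. Its H3K4me2 change was 1.41 with 1000 bp added.

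A growth from an unbroken start was seen at chr19:38336977-38343350. Its H3K4me2 covered 1700 and 2025 bp at E11.5, 1775 and 1925 bp at E14.5, 4650 and 4750 bp in frontal and 5750 and 6175 bp in occipital cortex. The early lists held close values and every E17.5 list was far above them, with a log2 change of 1.42 ± 0.08 (SE, limma adjusted p = 0.000608). With lengths scaled to the total of each list the change was 0.92, and the call held only narrowly (limma adjusted p = 0.0498). H3K27ac at this locus covered 2475 and 1175 bp at E14.5, 4200 and 5150 bp in frontal and 5425 and 3650 bp in occipital cortex, so that both marks widened.

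The fifth of the leading calls was of another kind. At chr9:20968702-20973525 H3K4me2 filled the 4824 bp of the locus in both E11.5 lists and all 4 E17.5 lists and covered 3674 and 3749 bp at E14.5 (log2 change 0.36 ± 0.01, SE, limma adjusted p = 0.000502). The equal values came from counting inside the locus, whose ends cut the regions off. With whole regions, which measured 4175 and 4625 bp at E14.5 and 5550 to 5725 bp at E17.5, it narrowly missed the threshold (adjusted p = 0.0501), and with scaled lengths its change was -0.15 (adjusted p = 0.703). The 1 locus that fell, chr13:58550626-58552950, was called under 3 of 14 alternatives (adjusted p from 0.0092 to 0.269) and not when either replicate of E14.5, frontal or occipital cortex was left out.

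Between the areas of E17.5 cortex, 10 primed loci were called as different in H3K4me2. Frontal against occipital cortex, 2 were higher and 8 lower (limma, adjusted p below 0.05), or 1.05% of 955, where 0.575% of all 56312 tested loci were higher and 7.18% lower (7.76% either way). When a call in at least 3 lists was asked for, 3 primed loci (0.314%) and 0.329% of all tested loci were called, which is nearly the same share. The count depended on single lists, with 2 called loci (0.209%, against 1.68% of all) without replicate 2 of occipital cortex and 21 (2.20%, against 8.88% and 9.03% of all) without replicate 1 or 2 of E14.5, which only share in the estimate of the spread. The count was 16 (1.68%, against 8.25% and 8.64%) without replicate 1 or 2 of E11.5 and 18 (1.88%, against 9.61%) without frontal replicate 1. Without replicate 1 of occipital cortex 9 primed loci (0.942%) were called, against 1.25% of all. The median change was -0.07 for primed and -0.16 for all tested loci, and 0.34 and 0.18 with scaled lengths.

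H3K4me2 at chr8:129814302-129818275 was absent from both frontal lists and covered 825 and 975 bp in occipital cortex (log2 difference -2.46 ± 0.15, SE, limma adjusted p = 0.000792). Likewise chr6:99412276-99417475 had none in frontal cortex and 1025 and 1500 bp in occipital cortex (-2.85 ± 0.21, SE, limma adjusted p = 0.00139). With 1000 bp added in place of 200, the differences were -0.93 and -1.17, and both calls held. The equal lists at 0 bp add nothing to the spread under either setting. In both, H3K4me2 was called at E11.5 with 525 to 625 bp, little more than the 500 bp of the shortest region listed at E14.5. It was not called at E14.5, and H3K27ac was called in both areas by the rule. At chr15:54576626-54579625 it covered 2050 and 1900 bp in frontal cortex and the whole 3000 bp of the locus in each occipital list (-0.56 ± 0.05, SE, limma adjusted p = 0.00217), a call that was lost with scaled lengths (adjusted p = 0.868) and without replicate 1 or 2 of occipital cortex (0.0778 and 0.0727).

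In the other direction, chr13:58550626-58552950 had 1000 and 950 bp of H3K4me2 in frontal cortex and none in occipital cortex (2.55 ± 0.30, SE, limma adjusted p = 0.0081). At chr16:73200751-73204550 there were 1625 and 750 bp in frontal cortex and none in occipital cortex (2.72 ± 0.36, SE, limma adjusted p = 0.0136). With 1000 bp added the differences were 0.98 and 1.10, and neither was called (limma adjusted p = 0.0667 and 0.0542). Both calls were also lost when a call in at least 3 lists was asked for (0.0884 and 0.125) and without either occipital replicate, and the first also without either frontal one, with limma adjusted p over all 14 alternatives of 0.00264 to 0.164 and 0.00731 to 0.241. H3K27ac at chr13:58550626-58552950 covered 550 and 2200 bp in frontal and 2000 and 600 bp in occipital cortex, so that the areas overlapped. At chr16:73200751-73204550 it covered 3425 and 3325 bp in frontal and 2300 and 800 bp in occipital cortex, with both frontal lists above both occipital ones (1.18 ± 0.91, SE, not called by limma).

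No primed locus was called as different in H3K27ac between frontal and occipital cortex. The limma count was 0 of 955, against 1.59% of all 85290 tested loci higher and 0.721% lower (2.31% either way). At an unadjusted p under 0.05 there were 12 primed loci (1.26%), against 5.24% of all tested loci. Calls among all loci were made only with the settings used here. Under each of the 13 alternatives run for this test, 0 loci of the whole table were called, so the 0 among primed loci is not read against the 2.31%. Demanding a call in all 4 E17.5 lists had removed loci absent from an area, so that only differences in length could be found. The median difference was 0.09 on the log2 scale for primed and 0.07 for all tested loci, and -0.07 and -0.04 with scaled lengths.

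Primed loci were short as a rule, with a median locus of 2349 bp against 2651 bp for unprimed loci, but some grew into long acetylated domains. The longest by E17.5 H3K27ac, chr8:88840102-88864475, had 625 and 1275 bp of H3K4me2 in the E11.5 lists. Its H3K27ac covered 7250 and 4200 bp at E14.5, 20050 and 22350 bp in frontal and 21900 and 20650 bp in occipital cortex. H3K4me2 remained short there, with 0 and 650 bp at E14.5, 2075 and 825 bp in frontal and 2800 and 4825 bp in occipital cortex. All 4 E17.5 values of H3K27ac thus exceeded those of H3K4me2 several times over.

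At chr13:70287601-70306625 most of the acetylation was present by E14.5, when H3K27ac covered 15425 and 9825 bp, against 16175 and 18450 bp in frontal and 16225 and 12150 bp in occipital cortex. H3K4me2 there covered 925 and 1525 bp at E11.5 and 4025 to 8175 bp at E17.5. The locus chr12:51044376-51057175 behaved likewise, with H3K27ac of 11025 and 8250 bp at E14.5, 10075 and 12650 bp in frontal and 12300 and 10900 bp in occipital cortex. Of the 8 longest loci it also had the most H3K4me2 at E17.5, with 1200 and 3850 bp at E11.5, 1575 and 4250 bp at E14.5, 8525 and 8350 bp in frontal and 9900 and 8900 bp in occipital cortex. Its H3K4me2 lists of E17.5 stood above all earlier ones, although the change of 1.69 ± 0.58 was not called (SE, limma adjusted p = 0.199).

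Late acetylation marked chr9:112624726-112642625, where H3K27ac covered 750 and 1200 bp at E14.5 and then 15050 and 17775 bp in frontal and 17800 and 11500 bp in occipital cortex. Its E11.5 H3K4me2 lists differed widely, at 750 and 4300 bp. No overlap existed between the ages in H3K27ac.

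The other 4 of the 8 longest loci were chr1:55939702-55961375, chr14:22853276-22872725, chr13:98677451-98691900 and chr9:43758552-43773251. The first of them spread most between replicates, with H3K27ac of 13775 and 20450 bp in frontal and 20825 and 6000 bp in occipital cortex, so that replicate 2 of occipital cortex overlapped E14.5 (6250 and 3950 bp). At the second, H3K27ac covered 8600 and 4775 bp at E14.5 and 6425 to 17475 bp at E17.5. At chr13:98677451-98691900 it covered 6725 and 2575 bp at E14.5 and 5825 to 14450 bp at E17.5, and at chr9:43758552-43773251 5175 and 2550 bp at E14.5 and 7825 to 14700 bp at E17.5. On chromosomes 14 and 13, replicate 2 of occipital cortex was again the lowest E17.5 value and overlapped E14.5.

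**Figure D5:**
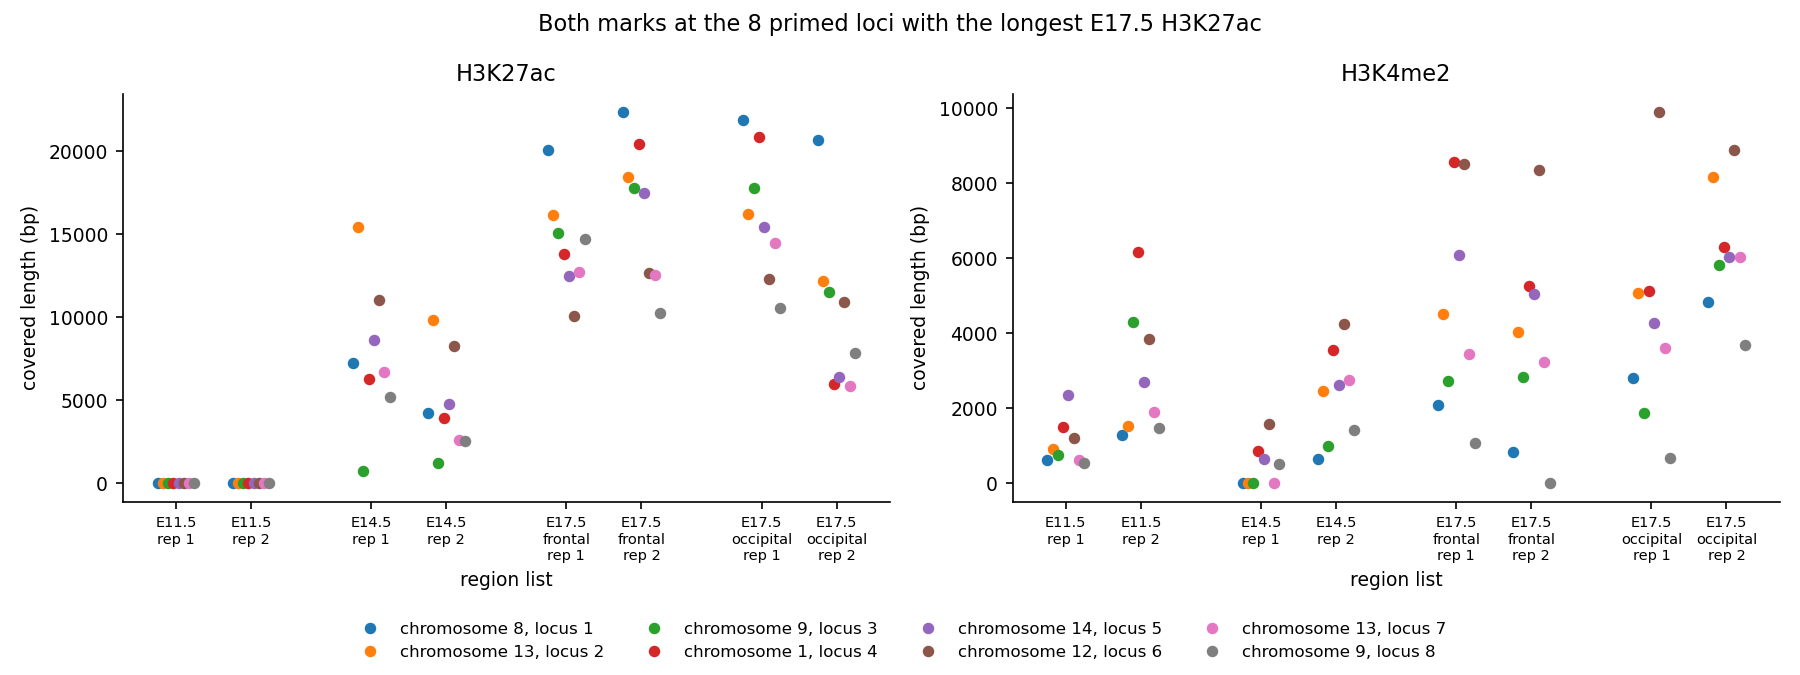
Covered length (bp) of H3K27ac (left) and H3K4me2 (right) in each list at the 8 primed loci with the longest mean E17.5 H3K27ac, 1 colour per locus, numbered by that length. H3K27ac of the first locus, on chromosome 8, lies between 20050 and 22350 bp in the 4 E17.5 lists, while its H3K4me2 lies between 825 and 4825 bp.

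Long early H3K4me2 did not come with long later acetylation at every locus. The 5 primed loci with the most H3K4me2 at E11.5 were chr2:57226226-57232075 (4325 and 5475 bp), chr9:20968702-20973525 (4824 bp in each list), chr8:111768901-111776675 (2675 and 6500 bp), chr4:9770327-9774701 (4375 bp in each list) and chr1:55939702-55961375 (1500 and 6175 bp). At the fourth, H3K4me2 filled the locus in all 8 lists, with whole regions of 5425 to 5700 bp. Its H3K27ac covered 1400 and 825 bp at E14.5, 4375 and 650 bp in frontal and 1125 and 1375 bp in occipital cortex, so that the acetylated part was the shorter one in all lists but 1. At chr8:111768901-111776675 both marks were long, with H3K27ac of 6025 and 6600 bp at E14.5, 5400 and 7750 bp in frontal and 7775 and 6725 bp in occipital cortex.

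Most of the H3K4me2 that lacked H3K27ac at E11.5 did not become acetylated in every E17.5 list. Autosomal stretches common to both E11.5 H3K4me2 lists numbered 4506 where neither E11.5 list had H3K27ac, and 22360 where both had it. Of the first, 25.8% met H3K27ac in all 4 E17.5 lists, 35.0% met it in none, and 29.0% met it in no list of E14.5 or E17.5. Of the second, 89.8% met it in all 4 and 1.19% in none. The unacetylated stretches were also shorter, with a median of 850 bp against 2175 bp, and H3K4me2 itself was in all 4 E17.5 lists at 56.5% of them against 89.2%. The part of length in these shares was not tested.

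Loci with E11.5 H3K4me2 were more often called for H3K27ac in all 4 lists of E17.5 than loci without it. Of the 2820 autosomal loci with no E11.5 H3K27ac and H3K4me2 in both lists of that age, 33.9% had H3K27ac in each of the 4 E17.5 lists. The share was 28.9% of 5510 loci with H3K4me2 in 1 list and 11.6% of 68416 loci with none. Every locus of this count had H3K27ac in at least 1 later list, since only such loci exist among the merged regions, and the counts restate the rule. Wider loci can also meet H3K4me2 more easily, and the part of width in these shares was not tested.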

How the data were processed

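The authors deposited 1 list of called regions per ChIP sample, with 3 columns (chromosome, start, end) that hold positions in bp and neither read number nor score. Bowtie 0.12.9, hg19 and mm9 appear, with no role stated, per the submitters' processing notes. The caller and its threshold were not given in the sources used here, and the lists were taken as mm9, as their regions reach position 197068850 of chromosome 1. The gene table at hand is of GRCm38.p6, so no gene was assigned and no sequence is printed. The 10 rhesus lists were not used here.

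Lists were merged with Python 3.11.15 (numpy 2.4.6, pandas 2.3.3), and an overlap of 1 bp counted as a call. Covered length inside each locus was tested as log2(bp + 200) with limma 3.58.1 in R 4.3.3 (lmFit, eBayes with trend, a mean per tissue over the 8 lists of a mark, E17.5 as the mean of both areas). The test was tried on simulated lists, where some unchanged loci were called, so single calls are weak. P-values set a difference of means against the spread between biological replicates, 2 per tissue. That spread was pooled over all tissues and moderated across loci.

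The members, gene and marker lists and named loci were chosen with earlier results of these data known. The gene and marker lists could not be used. Named loci are the 8 with the longest mean E17.5 H3K27ac, the 5 with the longest E11.5 H3K4me2, the leading calls of each test (5 each way, or 3 each way between areas), and the 3 on each side of the rule's edge.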

Additional observations from a re-analysis of the deposited data

Results flagged for a closer look

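Both E17.5 areas can be set against the same E14.5 lists, and 5 named primed loci had an H3K4me2 change that differed between frontal and occipital cortex by the limma test of the difference itself. Frontal minus occipital, the log2 difference was 2.55 at chr13:58550626-58552950 and 2.72 at chr16:73200751-73204550. It was -2.46 at chr8:129814302-129818275, -2.85 at chr6:99412276-99417475 and -0.56 at chr15:54576626-54579625. One area was at 0 bp at all but the chromosome 15 locus, so that the size there was set by the 200 bp added before the log. With 1000 bp added the differences were 0.982, 1.10, -0.925, -1.17 and -0.428 in the order given. At the chromosome 8 and chromosome 6 loci the E14.5 lists were at 0 bp as well as the frontal ones. At the chromosome 16 locus the E14.5 lists were at 0 bp as well as the occipital ones. Equal lists at 0 bp add nothing to the spread and so lower the SE, and no alternative tried removes them all. The calls at the chromosome 8 and chromosome 6 loci held under all 14 alternatives tried, with limma adjusted p of 0.00138 to 0.0334 and 0.0039 to 0.0326. Those at the chromosome 13, 16 and 15 loci held under 8, 10 and 11 of the 14.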

How the results depend on the processing

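The number of primed loci was 359 when each list was cut to its widest regions (47631 for H3K27ac, 32366 for H3K4me2) and ranged from 957 to 2794 when single lists were left out (2498 without E11.5 replicate 1 of H3K4me2). The share of primed loci with H3K27ac in both E14.5 lists ranged from 55.1% to 89.6% over lists left out, and that of unprimed loci from 32.0% to 65.6%. The upper ends are the shares in E14.5 replicate 1 alone. For H3K4me2 at E17.5 against E14.5, the count was 21 with scaled lengths and 18 with no filter, and single lists left out gave 18 to 205. Frontal against occipital, 3 were called for H3K4me2 with a call in at least 3 lists, and 2 to 21 with lists left out. A pseudocount of 1000 bp gave counts of 37 and 9 for these tests, with smaller log2 changes at loci that have lists at 0 bp. The count for H3K27ac was 0 under all alternatives run, with lists left out as well. At chr9:20968702-20973525 the H3K4me2 change turned to -0.153 with scaled lengths. With the replicate number as a block the counts were 39, 10 and 0, close to those without it. Same-numbered lists are not said to share animals, and across loci the deviations of same-numbered replicates correlated at -0.204 to 0.281, so the block is not read as a pairing. Causes were not tested. Read depth is unknown and limits each absence to the authors' threshold.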

Other observations

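Primed loci lay on every autosome. They made up 17.3% of the 260 gained loci on chromosome 19, and between 5.59% (chromosome 6) and 10.7% (chromosome 10) on the others. Most lay alone. Another primed locus was within 50 kb of 80 of the 955 (8.38%), in 34 pairs and 4 runs of 3. The runs of 3 were at chr2:115707627-115751200, chr10:80808901-80890775, chr17:56372626-56391450 and chr19:44713926-44795550. Only 36 loci of chromosomes X and Y met the H3K27ac part of the rule, and they were left out by it.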
